A study of Taeniopygia guttata with 23 samples.

Results

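The enzyme that transcribes protein-coding genes, RNA polymerase II (Pol II), was mapped in the auditory forebrain of male zebra finches (Taeniopygia guttata) at 2 ages by chromatin immunoprecipitation and sequencing. The series holds 23 samples, and all 5 of its Pol II libraries are described here, which are 1 library from day 32 after hatching (P32) and 4 libraries from day 67. The P32 birds had stayed in their home aviaries, with an experience given as normal. The day 67 birds had been housed from day 21 either with 1 adult male and 1 adult female (Tutored, 2 libraries) or with 2 adult females and no adult male (Isolate, 2 libraries). The series' own design text puts the older birds at day 65. All birds were male, and the labels name no drug, transgene or mutation in any group.

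The libraries differed in more than age. The labels name the antibody ab5095 for P32 and for both replicate 1 libraries, and only Pol II for both replicate 2 libraries. The deposited names carry different codes for P32, for replicate 1 and for replicate 2, so that age, housing and this code cannot be told apart for P32. How many birds a library holds was not stated in the labels, and the spread between libraries may be technical. The lists name no gene, and markers of the auditory forebrain could therefore not be looked up.

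Pol II is recruited to promoters, often pauses just downstream of the start site, and then travels through the gene body. The antibody ab5095 is known for recognising the phosphorylated tail of the polymerase that is actively elongating, so enrichment can extend over whole genes as well as over promoters. In songbirds the weeks between these ages cover much of the period in which a juvenile male memorises the song of a tutor, and the auditory forebrain is where heard song is processed. Bird genomes combine a few large chromosomes with many small ones, and the small ones are known to be dense in genes. Males carry 2 copies of the Z chromosome.

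The measured unit was the island, a stretch of genome in which 1 library had more ChIP reads than its background, called by the authors in each library separately. The P32 list held 10996 islands, which lay between the 8589 islands of Tutored replicate 2 and the 15198 of Isolate replicate 2, and below the 18311 of Tutored replicate 1 and the 19656 of Isolate replicate 1. Reads inside islands numbered 1579718 at P32, and 3551511, 3780427, 1991518 and 3264120 in Tutored replicate 1, Isolate replicate 1, Tutored replicate 2 and Isolate replicate 2. The P32 library thus had the fewest reads in islands of the 5. It also had the lowest density, at 30.3 reads per kb of island against 38.7, 40.7, 49.3 and 53.8 in the same order. Its islands were not short, with a median of 3.6 kb against 2.4 to 3.4 kb. Islands of at least 20 kb made up 0.973% of the P32 list (107 islands) and 1.93% to 2.24% of the day 67 lists.

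Relative to day 67, Pol II island cover at P32 was low on the small chromosomes, and on the large autosomes it lay within the day 67 range. Of the sequence of the 20 chromosomes shorter than 20 Mb, islands covered 7.21% at P32. Cover of the same chromosomes was 19.3% in Tutored replicate 1, 21.4% in Isolate replicate 1, 10.4% in Tutored replicate 2 and 17.0% in Isolate replicate 2, a day 67 mean of 17.0% ± 4.74 (SD, n = 4). P32 lay below all 4. On the 6 autosomes of at least 50 Mb cover was 4.63% at P32, within the day 67 values of 6.54%, 6.11%, 2.30% and 3.23% (4.54% ± 2.10, SD, n = 4). The ratio of P32 to the day 67 mean was 1.02 on the large autosomes, 1.097 on Z, 0.624 on the 8 chromosomes of middle length and 0.424 on the small chromosomes. An exact permutation test of 1 library against 4 cannot go below a p of 0.2, so these values are set beside the range of the day 67 libraries and not tested.

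**Figure D1:**
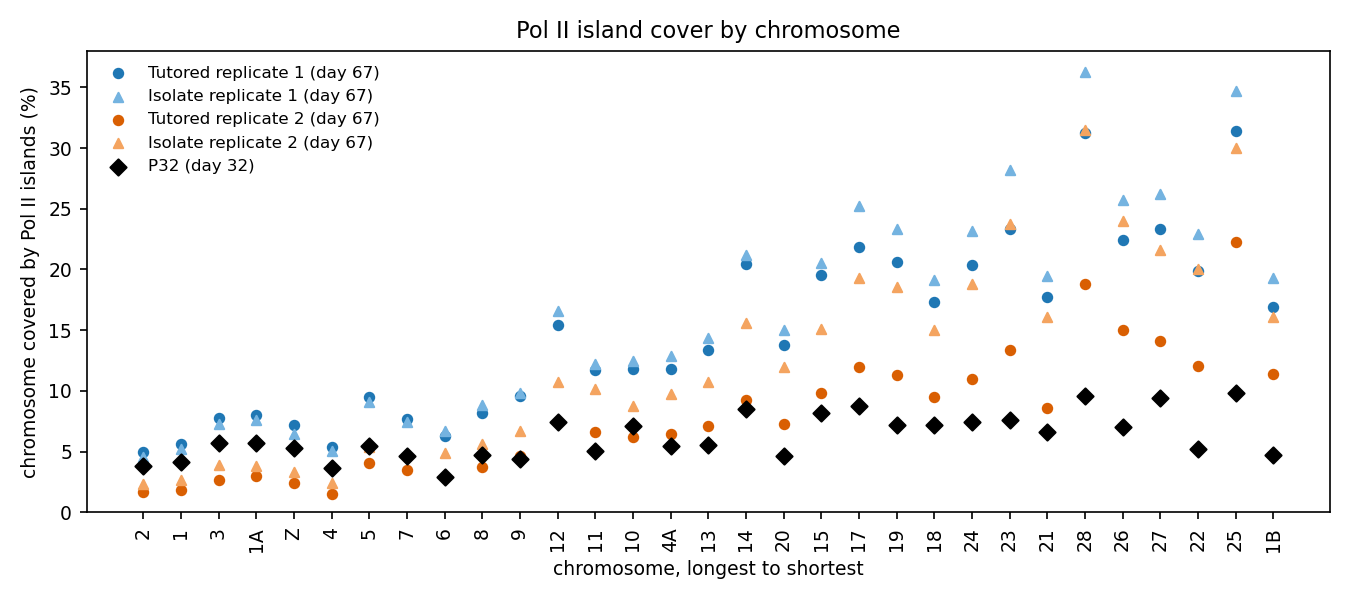
Share of each chromosome covered by Pol II islands (y axis, percent), for the 31 chromosomes of at least 1 Mb ordered from longest to shortest (x axis), with 1 point per library. The black P32 points lie among the day 67 points on the longest chromosomes and at or below all of them on most short ones, as on chromosome 28 with 9.55% at P32 and 18.8% to 36.3% at day 67.

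The order of the chromosomes was close to an order by length. P32 cover was below the day 67 range on 19 of the 31 chromosomes of at least 1 Mb, within it on 12 and above it on 0. Chromosome 2, the longest, was covered over 3.78% at P32, inside a day 67 range of 1.68% to 4.95%. Chromosome 28 was covered over 9.55% at P32 and 18.8% to 36.3% at day 67, and chromosome 22 over 5.20% against 12.1% to 22.9%, which is 0.278 of its day 67 mean. Across the 31 chromosomes the log2 ratio of P32 to the day 67 mean rose with the log10 of chromosome length, with a Pearson r of 0.929 and a Spearman rho of 0.950. This correlation is a description across chromosomes of the same libraries, which are not independent samples.

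Dividing 1 chromosome class by another within a library removes the library's total. Small chromosomes had 1.56 times the cover of large autosomes at P32. The same ratio was 2.95 in Tutored replicate 1, 3.49 in Isolate replicate 1, 4.54 in Tutored replicate 2 and 5.27 in Isolate replicate 2 (4.06 ± 1.04, SD, n = 4). P32 was lowest, the replicate 1 libraries were next and the replicate 2 libraries were highest, so this ratio also differed between the replicate numbers at 1 age. Small chromosomes took 20.6% of the P32 reads in islands, and 30.2%, 32.8%, 38.0% and 40.3% of those of the day 67 libraries in the same order. Z stood apart from the small chromosomes. Its cover relative to the large autosomes was 1.15 at P32, above 1.098, 1.06, 1.07 and 1.03 at day 67 (1.07 ± 0.0264, SD, n = 4). With equal numbers of islands per library it was 1.090 at P32, within the day 67 range of 1.01 to 1.109. Some of the P32 cover of Z lay close together. Islands covered 308 kb from 62 to 63 Mb at P32, and 251, 86.8, 12.2 and 15.0 kb at day 67. From 61 to 62 Mb they covered 118 kb at P32 and 8.2 to 33.8 kb at day 67. These windows were picked for their regions of P32 alone, and the ratio of Z without them is not given here.

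Merging the overlapping islands of the 5 libraries gave 25502 Pol II regions, of which 9219 were called at P32. The day 67 libraries called 15741 (Tutored replicate 1), 16985 (Isolate replicate 1), 6974 (Tutored replicate 2) and 12843 (Isolate replicate 2). A region that was not called has an unknown count, not a count of 0, since reads outside islands were not listed. Of the P32 regions, 3651 (39.6%) were called in all 4 day 67 libraries, 1376 in 3, 1140 in 2, 780 in 1 and 2272 (24.6%) in none. The more day 67 libraries held a region, the more often P32 held it too. P32 called 9.16% of the regions found in 1 day 67 library, 21.5% of those in 2, 32.6% of those in 3 and 70.4% of those in all 4.

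More of the P32 island sequence lay inside replicate 1 islands than inside replicate 2 islands, which also covered less sequence. Islands covered 52.1 Mb at P32, 91.9 and 92.8 Mb in Tutored and Isolate replicate 1, and 40.4 and 60.7 Mb in Tutored and Isolate replicate 2. Tutored replicate 1 covered 70.1% of the P32 island bases and Isolate replicate 1 covered 66.4%, against 37.9% for Tutored replicate 2 and 41.2% for Isolate replicate 2. Taken the other way, P32 islands held 39.8%, 37.3%, 49.02% and 35.4% of the island bases of Tutored replicate 1, Isolate replicate 1, Tutored replicate 2 and Isolate replicate 2, an order that does not follow the replicate number. The base-pair Jaccard index, shared bases over bases covered in either library, gave 0.340, 0.314, 0.272 and 0.235 in the same order. Within a replicate number the Tutored and Isolate libraries reached 0.604 for replicate 1 and 0.461 for replicate 2. Of the 3823 regions called in both replicate 1 libraries and neither replicate 2 library, P32 called 944 (24.7%). Of the 254 called in both replicate 2 libraries and neither replicate 1 library, it called 17 (6.69%).

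The 2272 regions called at P32 alone were a larger share of their library than in any other of the 5. The matching shares were 12.05% (1896 of 15741 regions) in Tutored replicate 1, 16.3% (2767 of 16985) in Isolate replicate 1, 8.45% (589 of 6974) in Tutored replicate 2 and 19.3% (2484 of 12843) in Isolate replicate 2. Every library therefore had regions of its own, and the day 67 shares spanned more than a 2-fold range. The comparison was not even. Each day 67 library was set beside a library of the same age and replicate number, while P32 had no other library of its age. The base-pair Jaccard index was 0.604 and 0.461 in those day 67 pairs, and at most 0.340 between P32 and any other library. Regions shared within such a pair do not count as alone, which favours a larger share at P32. The size of this effect was not tested. With the replicate 2 libraries alone as the day 67 group, P32 had 3881 regions that they did not call. The regions of P32 alone had a median length of 3.0 kb and a median of 74 reads, against 1.2 to 2.4 kb and 51 to 65 reads for the regions of a single day 67 library. Their median distance from a merged Pol II region called in another library was 7.6 kb. It was 4.4 to 10.6 kb for the regions of a single day 67 library.

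Most of these regions lay on large chromosomes. Of the regions called at P32 alone, 65.6% were on the large autosomes and 6.82% on the small chromosomes, whereas the regions of a single day 67 library were on the large autosomes in 42.6% to 54.3% of cases and on the small chromosomes in 14.1% to 26.5%. As a share of all P32 regions in the class, those called at P32 alone were 30.7% on the large autosomes (1491 of 4860), 34.1% on Z (225 of 660), 20.7% on the middle chromosomes (401 of 1936) and 8.79% on the small ones (155 of 1763). The share called in all 4 day 67 libraries ran the other way, from 28.0% on Z and 31.9% on the large autosomes to 44.7% and 59.4% on the middle and small chromosomes.

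**Figure D2:**
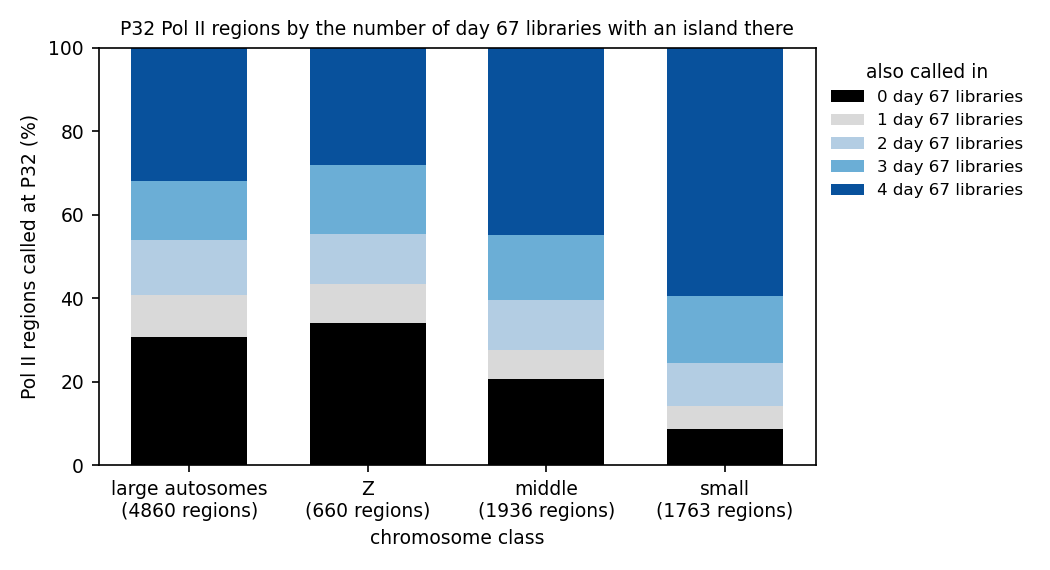
Pol II regions called at P32 (y axis, percent of the class) in each chromosome class (x axis, with the number of P32 regions), divided by how many of the 4 day 67 libraries also called them. The black part, called in no day 67 library, is 30.7% on the large autosomes and 8.79% on the small chromosomes.

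The regions of P32 alone with the most reads were broad. They were picked by reads or by length, which favours broad regions. The region chr4:56311601-56326800 held 444 reads over 15.2 kb at P32, and chr1A:60311001-60327000 held 418 reads over 16.0 kb. The longest, chr4:59005601-59025400, held 408 reads over 19.8 kb. On Z, chrZ:62601201-62614600 held 339 reads over 13.4 kb, and on chromosome 3, chr3:89345601-89360000 held 314 reads over 14.4 kb. In these 5 regions no day 67 library had a Pol II island. H3K4me3 overlapped the first and the last of them in 1 list each, and H3K27me3 and H3K9me3 overlapped none of the 5. Marks were rare in the whole set too. Of all 2272 regions of P32 alone, 89.2% had H3K4me3 in no list, 96.7% had no H3K27me3 and 97.3% no H3K9me3.

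Regions found throughout day 67 and missing from the P32 list numbered 1538, which is 29.6% of the 5189 regions called in all 4 day 67 libraries. By class they were 24.8% on the large autosomes (512 of 2064), 24.5% on Z (60 of 245), 30.2% on the middle chromosomes (375 of 1241) and 36.1% on the small ones (591 of 1639). The count depends on Tutored replicate 2, the shortest list, and was 3911 without it. Regions called at P32 alone were then 2312, so which set was larger depended on the libraries compared. Missing from 1 library and present in the other 4 were 1123 regions for Tutored replicate 2, 208 for Isolate replicate 2, 20 for Tutored replicate 1 and 25 for Isolate replicate 1.

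The strongest of the regions missing at P32 were long and lay on middle and small chromosomes. They were picked by reads summed over a region, which favours long regions. The region chr14:10308801-10364600, 55.8 kb long, held 1679 reads in Tutored replicate 1, 2041 in Isolate replicate 1, 1549 in Tutored replicate 2 and 3209 in Isolate replicate 2. On chromosome 22, chr22:3186601-3227400 held 1402, 1825, 2523 and 2887 reads in the same order, and on chromosome 11, chr11:5170601-5223600 held 1382, 1504, 2301 and 3070. In all 3 the lowest day 67 library held over 1000 reads where P32 had no island. The other regions named by the same rule were chr14:8798801-8853200 with 1322 to 2573 reads and chr20:8847601-8887800 with 1158 to 2016 reads. All 5 overlapped H3K4me3 in all 5 lists, P32 included, and H3K27me3 in at least 4. H3K9me3 overlapped 4 of the 5 in the P32 list, and chr20:8847601-8887800 in no list. Their day 67 enrichment over input was low in the replicate 2 lists, where the authors' deposited fold lay between 1.18 and 1.53. Of all 1538 regions missing at P32, 46.6% overlapped H3K4me3 in all 5 lists and 15.7% overlapped H3K27me3 in all 5. H3K9me3 in the P32 list overlapped 40.0% of the 1538, whose median length was 5.6 kb.

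H3K4me3 marks promoters of active or poised genes, H3K27me3 is laid down by Polycomb repressors, and H3K9me3 marks heterochromatin. At the 3651 regions called in all 5 Pol II libraries, H3K4me3 islands overlapped 60.0% in the P32 list of that mark and 60.7% to 62.0% in the day 67 lists. At the 1538 regions missing at P32 the shares were 53.4% and 49.2% to 52.5%. There the P32 list of H3K4me3 overlapped more regions than any day 67 list did, although P32 had no Pol II island in them. At the 2272 regions called at P32 alone H3K4me3 was rare in every list, with 3.87% at P32 and 6.51% to 9.46% at day 67, and 89.2% of them had it in no list. Over all merged regions the shares were 39.2% at P32 and 39.8% to 40.6% at day 67. The sets also differed in median length, at 10.6, 5.6 and 3.0 kb in the order given, and 1 shared bp counted as overlap. Regions of a single day 67 library were set beside the H3K4me3 list of the same group and replicate number. They overlapped it in 4.24% (Tutored replicate 2), 12.1% (Tutored replicate 1), 24.3% (Isolate replicate 2) and 37.0% (Isolate replicate 1) of cases.

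**Figure D3:**
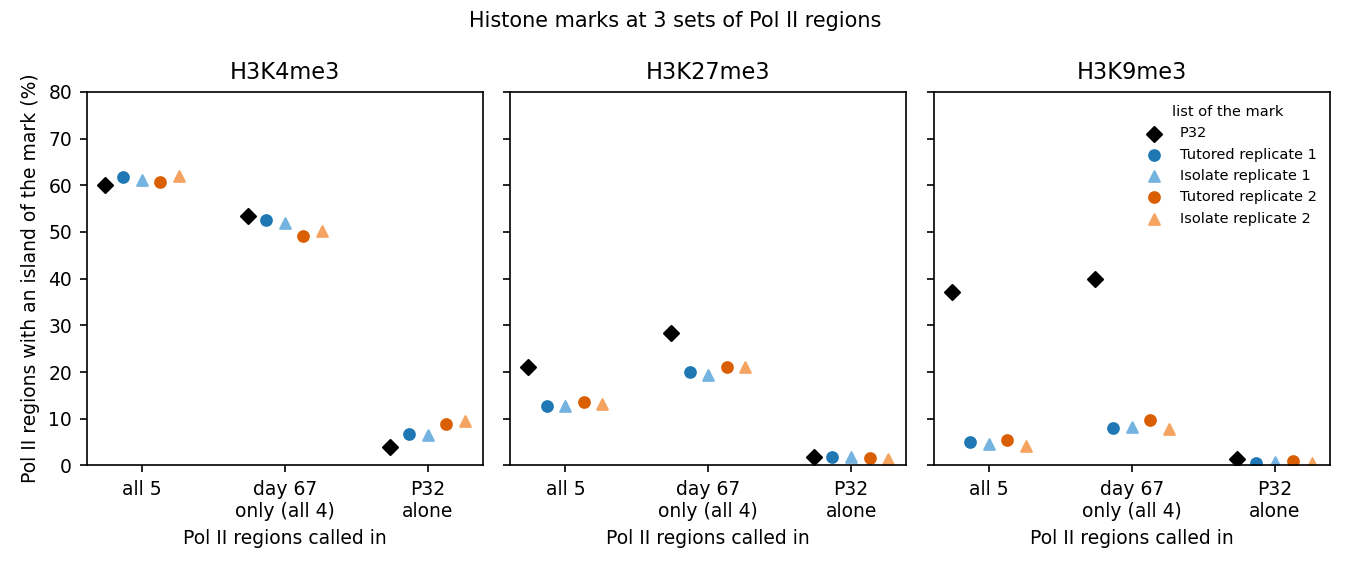
Share of Pol II regions that overlap an island of H3K4me3, H3K27me3 or H3K9me3 (y axis, percent), for regions called in all 5 Pol II libraries, in all 4 day 67 libraries but not at P32, and at P32 alone (x axis), with 1 point per list of the mark. At regions of P32 alone all points lie under 10%, and for H3K9me3 the P32 list stands apart from the day 67 lists in the other 2 sets.

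The P32 list of H3K9me3 differed from the day 67 lists at Pol II regions in general. Of all 25502 merged regions it overlapped 24.01%, and the day 67 lists overlapped 6.61% to 8.01%. It overlapped 37.2% of the regions called in all 5 Pol II libraries and 40.0% of those missing at P32, whereas the day 67 lists overlapped 4.19% to 5.45% and 7.87% to 9.75%. At the regions of P32 alone it overlapped 1.41%, with 97.3% free of H3K9me3 in all lists. H3K27me3 also overlapped more in the P32 list, at 21.04% of the regions called in all 5 against 12.7% to 13.5%, beside 20.2% against 14.7% to 16.3% over all merged regions. Of the P32 Pol II islands, 16.2% overlapped a P32 H3K9me3 island, and in the day 67 libraries 3.68% to 8.73% did. Whether the P32 libraries of different marks share background reads was not tested.

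P32 had Pol II islands at fewer of the H3K4me3 regions common to all 5 lists than 3 of the 4 day 67 libraries had. These regions were not matched to promoters of named genes. The named antibody is shared by P32 and replicate 1 only, and a missing island does not show that Pol II was absent. Of 13513 regions with H3K4me3 in all 5 lists of that mark, a Pol II island overlapped 26.4% at P32, 58.7% in Tutored replicate 1, 67.7% in Isolate replicate 1, 24.1% in Tutored replicate 2 and 50.8% in Isolate replicate 2. All 5 libraries had a Pol II island at 2042 of them, the 4 day 67 libraries without P32 at 939, and P32 alone at 86. On the small chromosomes P32 was lowest, with 29.2% against 32.7% in Tutored replicate 2 and 60.0% to 75.1% in the other libraries. On the large autosomes P32 (24.9%) lay above Tutored replicate 2 (19.5%).

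P32 Pol II islands lay farther from the common H3K4me3 regions than the day 67 islands did. Of the covered bases, 23.2% were inside an H3K4me3 region common to all lists at P32, against 27.7%, 30.7%, 27.5% and 33.3% in Tutored replicate 1, Isolate replicate 1, Tutored replicate 2 and Isolate replicate 2. Bases more than 100 kb from such a region were 8.84% at P32, and 5.59%, 4.58%, 3.21% and 2.95% in the same order. Both values put P32 outside the day 67 range. The share inside such regions was below the day 67 range on the large autosomes (18.3% against 25.0% to 35.4%), on Z (20.3% against 24.7% to 36.9%) and on the middle chromosomes (25.9% against 27.5% to 31.7%). On the small chromosomes P32 was highest, at 34.7% against 29.9% to 32.4%.

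In the regions called in all 5 libraries, P32 islands were more often shorter than longer. The covered length at P32 was above the day 67 range in 361 regions (9.89% of 3651) and below it in 1362 (37.3%). On the small chromosomes 58.1% were below and 3.15% above, on the middle ones 42.0% and 7.39%, on the large autosomes 22.6% and 14.5%, and on Z 21.1% each way. The median covered length was 5.6 kb at P32, 8.6 kb and 8.4 kb in Tutored and Isolate replicate 1, and 5.2 kb and 5.6 kb in Tutored and Isolate replicate 2. The count above the range was 654 without Tutored replicate 1 and 566 without Tutored replicate 2. The count below it stayed within 1.5 times when any 1 library was left out.

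Single regions differed in length by far more than these medians. On chromosome 1, chr1:36267201-36277000 was covered over 9.8 kb at P32 and over 2.4 to 3.0 kb at day 67, with 269 reads at P32 and 239, 274, 153 and 189 reads in Tutored replicate 1, Isolate replicate 1, Tutored replicate 2 and Isolate replicate 2. On chromosome 10, chr10:5466801-5478800 was covered over 12 kb at P32 and over 5.0, 2.0, 1.8 and 1.6 kb at day 67 in that order. Both had H3K4me3 in all 5 lists. In the other direction, chr9:18107201-18136400 was covered over 1.0 kb at P32 and over 22.6 to 29.2 kb at day 67, and chr5:22324801-22349800 over 0.6 kb at P32 and 14.4 to 21.2 kb at day 67. These regions were picked for their ratio of lengths, and the values describe them.

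Reads in the 3651 shared regions were compared with edgeR's quasi-likelihood test, in which the single P32 library is assumed to vary like the day 67 libraries. Only reads inside a library's own islands were listed and counted. A region that a library covers less therefore has a lower count, and its reads in the rest of the region are unknown. No region passed a Benjamini-Hochberg adjusted p of 0.05, so 0 were called higher and 0 lower at P32, which is 0% of those tested in each direction. The smallest adjusted p was 0.225, and 457 regions had an unadjusted p under 0.05. DESeq2 called 3 higher and 135 lower. With the replicate number as a block and P32 set midway between replicates 1 and 2, edgeR called 283 regions higher (7.75%) and 442 lower (12.1%), together 725 (19.9%). Replicate numbers were treated as pairing Tutored with Isolate libraries, whose deviations between replicates correlated across regions at an r of 0.654. The midway place of P32 was set by choice, since it cannot be estimated from a single library, and other places were not tried. In the cover of small over large chromosomes P32 (1.56) lay below both replicates and not between them. The blocked fit also leaves only 1 residual degree of freedom per region, which comes from the day 67 libraries.

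The calls also moved with the libraries compared. In the comparisons by replicate number, 1 Tutored and 1 Isolate library were pooled as 1 group, so the spread came from that pair. With 1 library left out, Tutored and Isolate stayed separate groups, so the spread came only from the pair left complete. The part of this narrower base in the changed counts was not tested. Against the 2 replicate 1 libraries alone, which share the named antibody with P32, edgeR called 165 higher (2.78%) and 566 lower (9.55%) of 5926 regions, together 12.3%. Against the 2 replicate 2 libraries alone it called 68 higher (1.83%) and 220 lower (5.93%) of 3713, together 7.76%. Leaving out 1 library from the unblocked test gave 152 higher and 126 lower without Tutored replicate 1, and 110 and 104 without Isolate replicate 1. It gave 10 and 41 without Tutored replicate 2, and 2 and 22 without Isolate replicate 2. In the comparisons by replicate number and by DESeq2, lower calls outnumbered higher ones, and without either replicate 1 library they did not.

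Compared with the range of the 4 day 67 libraries, P32 reads were above it in 1160 regions (31.8%) and below it in 1244 (34.1%) after TMM scaling. Scaled instead to the reads in all islands of a library, they were above in 1264 (34.6%) and below in 943 (25.8%). Under both scalings the large autosomes and Z split one way and the small chromosomes the other. After TMM scaling, P32 was above the range in 44.8% and below it in 19.6% of the 1552 regions on the large autosomes, above in 50.8% and below in 18.9% of the 185 on Z, above in 27.9% and below in 36.7% of the 866 on middle chromosomes, and above in 12.3% and below in 56.0% of the 1048 on small chromosomes. Scaled to reads in all islands, the shares above and below were 48.5% and 14.4% on the large autosomes, 53.5% and 14.1% on Z, and 15.4% and 42.7% on the small chromosomes, while on the middle chromosomes they were near equal at 29.0% and 28.4%. The blocked test called 195 higher and 78 lower on the large autosomes, 31 and 8 on Z, 41 and 117 on the middle chromosomes and 16 and 239 on the small ones, against the 7.75% and 12.1% over all regions.

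The median log2 difference in reads, P32 minus day 67, was 0.26 on the large autosomes, 0.35 on Z, -0.14 on the middle chromosomes and -0.45 on the small ones, beside -0.06 over all 3651 regions. Against replicate 1 alone the medians were 0.09, 0.19, -0.16 and -0.42, and against replicate 2 alone they were 0.38, 0.48, -0.13 and -0.58. Both sets rest on the same P32 library. The large autosomes minus the small chromosomes came to 0.72, and to 0.44, 0.59, 0.87 and 1.104 against Tutored replicate 1, Isolate replicate 1, Tutored replicate 2 and Isolate replicate 2 singly. Counted per covered base rather than per region, the difference was 0.09.

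**Figure D4:**
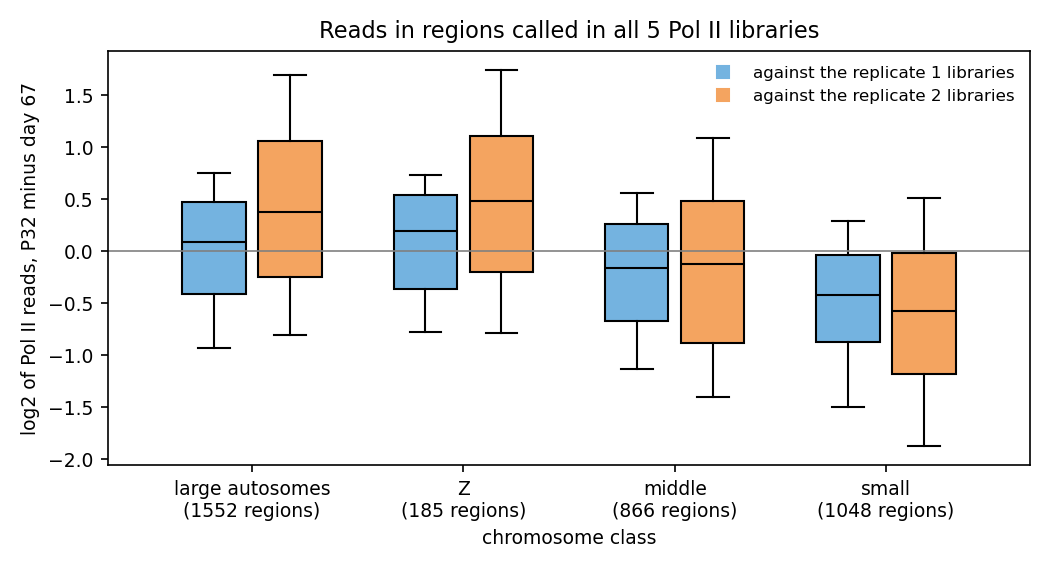
Log2 difference in Pol II reads per region, P32 minus day 67 (y axis), for the 3651 regions called in all 5 libraries by chromosome class (x axis), against the replicate 1 and the replicate 2 libraries. Lines mark medians, boxes the quartiles and whiskers the 10th and 90th percentiles over regions. Medians run from 0.09 and 0.38 on the large autosomes to -0.42 and -0.58 on the small chromosomes.

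Regions with and without a common H3K4me3 region also differed in their medians. The 2096 shared regions with an H3K4me3 region common to all lists had a median log2 difference of -0.23, beside -0.06 over all shared regions. The 1555 without one had a median of 0.24. On the large autosomes the median was 0.50 without a common H3K4me3 region (720 regions) and 0.01 with one (832). On the small chromosomes it was -0.32 without (383) and -0.56 with one (665). The 710 regions at least 20 kb long had a median of -0.39, with 10th and 90th percentiles of -1.94 and 1.08. The spread was smaller in regions under 5 kb, with a median of -0.10 and percentiles of -0.79 and 0.58.

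Other measures moved with these differences. The 1122 shared regions that overlapped H3K9me3 in the P32 list alone had a median log2 difference of -0.50. The 2232 regions without H3K9me3 in any list had a median of 0.20. The 343 regions with H3K27me3 in all 5 lists had a median of -0.79. In the replicate 2 lists, which also give input reads, the median input density was 12.98 and 14.0 reads per kb (Tutored and Isolate) at the blocked higher calls, 22.5 and 22.3 at the lower calls, and 16.3 and 16.4 over all shared regions. P32 input reads were not used here. The part of H3K9me3, H3K27me3 and input density in the Pol II differences was not tested.

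**Figure D5:**
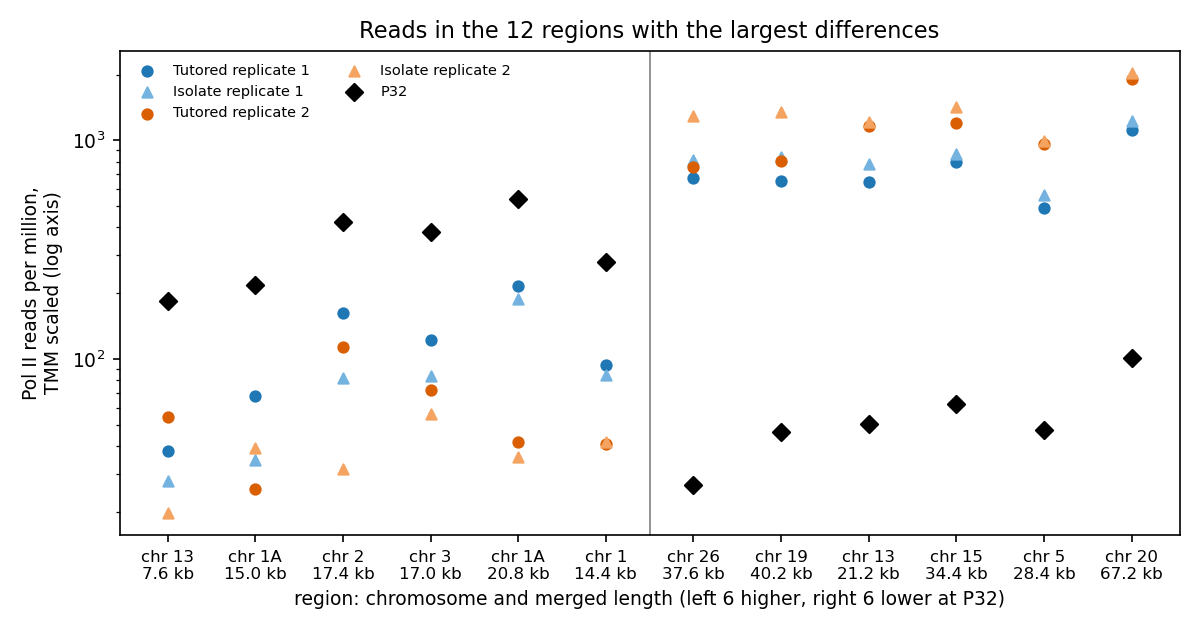
Pol II reads as TMM-scaled CPM (y axis, log scale) in the 12 shared regions with the largest log2 differences, 6 higher and 6 lower at P32 (x axis, chromosome and merged length), with 1 point per library. The P32 diamond lies above all day 67 points in the left 6 and below all of them in the right 6, because regions were required to lie outside the day 67 range.

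Among shared regions outside the day 67 range, the largest lower value at P32 was at chr26:3061201-3098800, a 37.6 kb region. Its islands held 28 reads at P32, 1343 in Tutored replicate 1, 1666 in Isolate replicate 1, 1127 in Tutored replicate 2 and 2351 in Isolate replicate 2. P32 reads in the rest of the region are unknown. All day 67 libraries had an island of at least 18.8 kb there and P32 one of 0.4 kb. The log2 difference was -5.02 (SE 0.61), with an edgeR adjusted p of 0.225 and of 0.00932 with the block. The 5 next, at chr19:7107601-7147800, chr13:3595601-3616800, chr15:14048401-14082800, chr5:7305401-7333800 and chr20:640001-707200, had log2 differences from -4.26 to -3.95 and did not pass the unblocked test either. P32 islands held 49 to 107 reads in them, and the day 67 islands held at least 981. In the replicate 2 lists the fold over input lay between 1.35 and 1.93 across all 6 regions. With covered length as an offset, all 6 regions had log2 differences above zero, from 0.14 to 1.16. All 6 overlapped H3K4me3 in all 5 lists and H3K9me3 in the P32 list, and chr26:3061201-3098800 overlapped H3K9me3 in all 5 lists. Of all 3651 shared regions, 56.8% overlapped H3K4me3 in all 5 lists and 37.2% overlapped H3K9me3 in the P32 list. The 6 regions were 21.2 to 67.2 kb long, beside a median of 10.6 kb. A longer region is more likely to share 1 bp with an island.

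The largest higher value was at chr13:10318601-10326200, a 7.6 kb region on a small chromosome with H3K4me3 in all 5 lists. It held 194 reads over 7.6 kb at P32, and 76, 57, 81 and 36 reads over 1.4, 0.8, 2.0 and 0.6 kb in Tutored replicate 1, Isolate replicate 1, Tutored replicate 2 and Isolate replicate 2. The log2 difference was 2.47 (SE 0.39), with an edgeR adjusted p of 0.225 and of 0.0186 with the block. Next came chr1A:49723001-49738000 and chr2:97937201-97954600, with log2 differences of 2.39 and 2.25, then chr3:58484801-58501800 with 2.21. At chr2:97937201-97954600 P32 held 446 reads against 326, 169, 168 and 57 in the same order. The day 67 libraries thus spanned more than a 5-fold range there, while none reached P32.

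In some of these regions the day 67 libraries split by replicate number. At chr1A:38682401-38703200, 20.8 kb long, P32 held 568 reads, the replicate 1 libraries 432 and 386 and the replicate 2 libraries 62 and 65, and no list of any histone mark had an island there. P32 was nearer to replicate 1, with log2 differences of 1.34 against replicate 1 and 3.79 against replicate 2. At chr1:59074201-59088600 the reads were 293 at P32, 187 and 175 in replicate 1 and 61 and 76 in replicate 2. The longest shared region, chr3:22108601-22362800 at 254.2 kb, also split by replicate number. It held 7177 reads at P32, 8789 and 7899 in replicate 1 and 1504 and 1241 in replicate 2. P32 was highest there only after TMM scaling, with log2 differences of 0.65 against replicate 1 and 3.00 against replicate 2.

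The other 4 of the 5 longest shared regions were called at both ages over differing lengths. The second longest, chr11:11377001-11524400 at 147.4 kb, was covered over 116.6 kb at P32 and 110.2 to 139.2 kb at day 67, and its log2 difference was 0.03 (SE 0.45, edgeR adjusted p 0.982). At chr3:28571201-28701000 P32 covered 120.4 kb and the day 67 libraries 109.4 to 128.4 kb, with a log2 difference of 0.28 (SE 0.41). At chr3:25217001-25346600, 129.6 kb long, P32 covered 103.8 kb, the replicate 1 libraries 127.0 and 124.2 kb and the replicate 2 libraries 55.0 and 34.8 kb, with log2 differences in reads of 0.21 against replicate 1 and 1.42 against replicate 2. At chr10:20499001-20608400 P32 covered 50.2 kb and the day 67 libraries 103.0, 107.0, 105.2 and 108.2 kb. Its reads were 2112 at P32 and 6591, 7607, 8400 and 10540 in Tutored replicate 1, Isolate replicate 1, Tutored replicate 2 and Isolate replicate 2, with a log2 difference of -1.20 (SE 0.58, edgeR adjusted p 0.439, and 0.0104 with the block).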

How the data were processed

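Pol II islands of 5 libraries were compared, beside the H3K4me3, H3K27me3 and H3K9me3 lists of the same groups. Per the submitters' processing notes, the tools were BWA 0.6.1, MACS and SICER 1.1, whose roles are not stated. Settings in the deposited names are 200 bp windows, gaps of 600 bp (H3K4me3, 200 bp) and a false discovery rate of 1E-5. No source used here names the genome build. Coordinates, 1-based, are those of the deposited islands, with no gene name or sequence. The authors deposited the count of ChIP reads per island, and for the replicate 2 Pol II lists also input read counts and a fold over input, per the values. The full depth of the libraries is unknown.

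Overlapping islands were merged, and 1 shared bp counted as called. Chromosome lengths are the highest island end in any list. Counts were summed per region and tested with edgeR 4.0.16 in R 4.3.3 (robust quasi-likelihood, scaled by TMM, threshold an adjusted p of 0.05 by Benjamini-Hochberg), contrasting P32 with the mean of Tutored and Isolate over regions called in all 5 libraries. DESeq2 1.42.0, where 1345 adjusted p were NA, was an alternative. Only the unblocked edgeR test was tried on simulated counts, which held no replicate effect. The block on replicate number rests on input pools labelled replicate 1 and 2. Replicate 1 follows the sample titles, although its deposited Pol II names hold a different number. Regions were named by a rule: up to 6 in each direction by the largest log2 difference, since none passed the test, with a mean of at least 50 reads and P32 outside the day 67 range, the 5 with most reads and 3 longest of P32 alone, the 5 strongest missing at P32, the 5 most lengthened and 5 most shortened of at least 5 kb, and the 5 longest. The members, classes and lists were chosen with earlier results of these data known.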

Additional observations from a re-analysis of the deposited data

How the results depend on the processing

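The calls of the read test rest on the fit. Regions higher and lower at P32 were 0 and 0 without a block, also with RLE scaling, only regions averaging at least 50 reads, uncalled libraries set to 0, covered length as an offset, islands within 1000 bp merged, or equal numbers of islands. They were 283 and 442 with the replicate block, 3 and 135 by DESeq2, 165 and 566 against replicate 1 alone, and 68 and 220 against replicate 2 alone. With 1 library left out they ranged from 2 to 152 and from 22 to 126. The gap of 0.72 in median log2 between large autosomes and small chromosomes was 0.088 with covered length as an offset and 3.28 with uncalled libraries set to 0. Regions called at P32 alone were 3881 against replicate 2 alone. Regions missing at P32 were 609 with equal numbers of islands, 7012 against replicate 1 alone, and 1612 to 3911 with 1 library left out. Longer and shorter regions at P32 were 98 and 497 when an island had to cover 50% of a region, 187 and 905 with equal numbers of islands, 880 and 3573 against replicate 1 alone, and, for longer ones, 1470 against replicate 2 alone and 416 to 654 with 1 library left out. H3K4me3 at regions of P32 alone was 6.89% with the 50% rule, 7.63% with equal numbers of islands, 12.4% against replicate 2 alone and 3.85% to 5.59% with 1 library left out. H3K9me3 at shared regions in the P32 list was 39.5% with islands merged within 1000 bp, 46.4% with equal numbers of islands, 29.9% against replicate 1 alone and 35.3% to 37.0% with 1 library left out. Cover of Z against the large autosomes, P32 over day 67, was 1.04 with equal numbers of islands in place of 1.08, and P32 then lay inside the day 67 range. The ratio of small to large chromosomes kept its side throughout, at 0.351 to 0.425 with 1 library left out. The cause of these shifts was not tested, except that fewer islands or libraries change what can be called.

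With covered length as an offset, reads per covered base are compared and the median over all regions was 0.21. By construction a region that P32 covers less then loses its low count, and 14 named regions changed sign. The values became -0.32 at chr13:10318601-10326200, -0.056 at chr1A:49723001-49738000, -0.71 at chr1:36267201-36277000, -0.072 at chr2:21110201-21117000, -0.35 at chr1A:47064801-47071200 and -0.43 at chr10:5466801-5478800. They became 1.16 at chr26:3061201-3098800, 0.29 at chr19:7107601-7147800, 0.14 at chr13:3595601-3616800, 0.65 at chr15:14048401-14082800, 1.01 at chr5:7305401-7333800, 0.55 at chr20:640001-707200, 1.34 at chr5:22324801-22349800 and 1.06 at chr9:18107201-18136400. The near-zero value at chr11:11377001-11524400 turned to -0.042 with uncalled libraries set to 0 and -0.12 against replicate 2 alone, and ranged from -0.0498 without Isolate replicate 1, through -0.0042 without Tutored replicate 1, to 0.13 without Isolate replicate 2. Depth limits absence: the smallest islands held 19 to 22 reads, and P32 had the fewest reads in islands, so a missing island at P32 may hold reads below the calling limit.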

Other observations

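Many regions called at P32 alone lay close to each other. Of the 1 Mb windows, 727 held at least 1 such region and 140 held 5 or more, with 1083 of the 2272 regions in those 140. No matching count is given here for all P32 regions or for the regions of another library. The window with the most was on Z from 62 to 63 Mb, with 28 regions, where islands covered 308 kb at P32, 251 kb in Tutored replicate 1, 86.8 kb in Isolate replicate 1, 12.2 kb in Tutored replicate 2 and 15.0 kb in Isolate replicate 2. The window before it on Z, from 61 to 62 Mb, held 22 regions, with 118 kb covered at P32 and 33.8, 25.4, 8.2 and 10.4 kb in the same order. These windows held 3 and 2 H3K4me3 regions common to all lists. On chromosome 3 the windows from 91 to 92 Mb and from 92 to 93 Mb held 22 and 18 regions, and on chromosome 1 the window from 65 to 66 Mb held 18. P32 had the most cover in all 5 windows, which were picked for their number of regions called at P32 alone, a choice that favours P32 cover. The replicate 1 libraries had more cover there than the replicate 2 libraries.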
